A study of Drosophila melanogaster with 6 samples.

Results

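The small nucleolar RNA (snoRNA) genes of Drosophila melanogaster were followed through the borders of topologically associating domains (TADs), in which chromosomal DNA contacts itself more often than it contacts its flanks. Members were all genes on the 6 main arms whose RefSeq symbol begins with snoRNA: or whose biotype is snoRNA. This took 273 of 17684 annotated genes, 257 of them with snoRNA: symbols and 16 with scaRNA symbols. Members at most 10 kb apart on an arm were joined, which gave 109 loci, of which 41 were clusters and 68 were single genes. The widest gap inside a cluster was 9826 bp, in the stet/hfp cluster, and the narrowest gap between neighbouring loci was 18468 bp, between RpS12 and RpS4.

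Hi-C was performed on imaginal discs of third-instar larvae, the sheets of epithelium that form the adult eye and antenna. All samples carried the genotype yw;+;+ and no treatment was named in the labels. Each library was made from 125 discs, the eye and antennal parts having been cut apart by hand. TAD lists of 3 eye disc libraries (1, 2 and 3), 2 antennal disc libraries (2 and 3) and 1 pooled list per disc were used; antennal disc library 1 was not analysed here. A disc pool is a mixture of cell types, no RNA was measured in these files, and the tissue labels could therefore not be checked against marker genes. The labels do not say that the libraries came from separate cultures of larvae, so the spread between them may be technical.

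snoRNAs guide the chemical modification of other RNAs. Box C/D snoRNAs direct methylation of the ribose through the enzyme fibrillarin, and box H/ACA snoRNAs direct the conversion of uridine to pseudouridine through dyskerin, which the fly gene Nop60B encodes. Most targets lie in ribosomal RNA, while scaRNAs work in Cajal bodies on the RNAs of the spliceosome. In flies, as in other animals, many snoRNAs lie within introns of other genes, often those for ribosomal proteins, and others within non-coding host genes named Uhg (U snoRNA host gene). TAD borders in flies are known to fall often at housekeeping genes, and whether snoRNA loci sit at borders, and at the same borders in both discs, is the question the lists can address.

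Class was read from the symbol alone, with Psi or aca taken as H/ACA and Me or CD as C/D. By this rule 121 members were H/ACA, 104 were C/D and 48 were left unclassed. The 48 carry other names, such as U14 or U29, and are unclassed by the rule only, not for lack of a class. A 28S ribosomal RNA site was named in 114 symbols and an 18S site in 67, a spliceosomal RNA in 18, and none of these in 74. Arm 2R held 97 members in 30 loci, 3L held 53, 3R 49, 2L 42, X 31 and chromosome 4 had 1. The median member was 134 bp long (range 46 to 511 bp) and the median cluster spanned 1192 bp (range 138 to 10091 bp), so nearly all loci were shorter than the 5 kb step on which the borders lie. The 41 clusters held 205 members, and 14 clusters of 5 or more held 133 of them. Of the clusters, 15 held C/D without H/ACA members, 13 held H/ACA without C/D members, 8 held both and 5 held neither by symbol.

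Host genes were assigned by span, as the shortest other gene that wholly contained the snoRNA, since the annotation table gives neither strand nor exons. By this rule 105 genes hosted snoRNAs. Other protein-coding genes hosted 126 members in 59 loci, ribosomal protein genes 69 members in 26 loci, and snoRNA host genes 54 members in 8 loci. Those 8 loci were the 7 in Uhg genes and that in Nop60B, placed with them because a synonym carries Uhg. A further 3 loci lay in the genes of the snoRNP proteins Fib and nop5 and the elongation factor eEF1alpha1, 4 lay in other non-coding genes, and 9 loci with 12 members had no host. A single host contained 34 of the 41 clusters.

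The libraries differed little in the number of TADs, with 1116 to 1217 per library and a median width of 90.0 to 100.0 kb. Eye disc library 1 and antennal disc library 3 stood apart: both held no TADs on chromosome 4 and both had the narrowest median width, 90.0 kb. Eye disc library 1 and antennal disc library 3 gave the same distance at 30 of 108 loci (27.8%, against 24.5% of all genes). Pairs of eye disc library 1 with the others did so at 29 to 35 loci, and eye disc libraries 2 and 3 with each other at 56 (51.9% against 50.9%). Antennal disc library 3 shared its distance with antennal disc library 2 at 40 loci and with eye disc libraries 2 and 3 at 36 and 33. By this measure eye disc library 1 and antennal disc library 3 were not especially alike. The labels name no batch, and whether these 2 libraries share one was not tested. The main summaries are also given without both. The reads behind each list are unknown.

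The distance of a locus was the mean of the distances of its ends to the nearest border. The median distance over loci was 18.8, 21.8 and 21.2 kb in eye disc libraries 1, 2 and 3 and 19.8 and 17.4 kb in antennal disc libraries 2 and 3. Over all 17684 genes the same medians were 21.2, 24.2 and 26.1 kb in eye disc and 23.1 and 21.5 kb in antennal disc. snoRNA loci thus lay nearer to borders than the median gene in each of the 5 libraries, by less than 5 kb, which is under 1 bin of the lists. The mean of the medians was 19.8 ± 1.78 kb (SD, n = 5 libraries) for loci and 23.2 ± 2.01 kb for all genes. The 1945 other genes shorter than 500 bp had a median of 25.5 ± 2.20 kb, so short genes in general did not lie nearer than the average gene. Without the 2 libraries that stood apart the disc-averaged median was 20.7 kb for loci and 24.1 kb for all genes. With the nearest point of each span in place of the mean of its ends, the disc-averaged medians were closer. They were 19.4 kb for loci and 20.7 kb for all genes. When the distance of each gene was averaged over the discs, 68 of 109 loci (62.4%) were nearer to a border than the median gene, at 25.6 kb. Among clusters this held for 30 of 41, and among single snoRNAs for 38 of 68.

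Eye and antennal discs did not separate in this summary. The medians over loci averaged 20.6 ± 1.60 kb in eye disc (n = 3) and 18.6 ± 1.72 kb in antennal disc (n = 2), and the libraries of both discs overlapped. The medians of all genes, 23.9 ± 2.45 kb and 22.3 ± 1.11 kb, ran in the same direction. The pooled lists gave 21.2 kb for eye and 18.1 kb for antennal disc over loci.

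A border within 1 bin (5 kb) was found for 15.7%, 16.5% and 16.5% of loci in eye disc libraries 1 to 3 and for 16.5% and 17.6% in antennal disc libraries 2 and 3. The background over all genes was 12.7%, 11.4% and 9.91% in the eye disc and 12.3% and 12.6% in the antennal disc libraries. The pooled lists gave 18.3% against 10.9% in eye disc and 14.7% against 12.2% in antennal disc. Loci exceeded the background in each of these 7 lists, and short genes other than snoRNA genes had 13.4% ± 1.28. Without eye disc library 1 and antennal disc library 3 the disc-averaged share was 16.5% against 11.5%. The excess depends on how position is measured: taking the nearest point of each span, long genes reach borders more often, and loci had 17.7% against 18.1% of all genes. With the host gene in place of the locus the values were 13.0% and 11.9%.

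**Figure D1:**
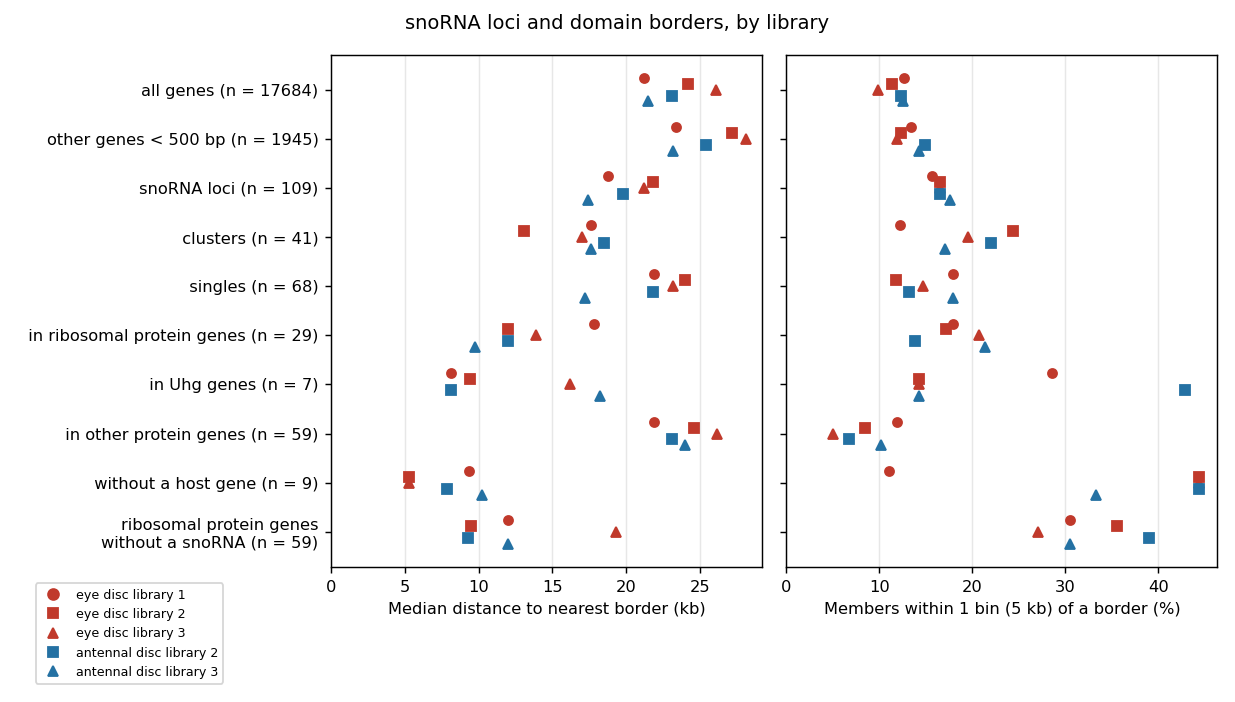
Median distance to the nearest border in kb (left) and percentage of members within 1 bin of 5 kb (right), with 1 marker per library, eye disc in red and antennal disc in blue. The markers of all snoRNA loci lie between 17.4 and 21.8 kb, those of loci in ribosomal protein genes between 9.73 and 17.8 kb, and those of loci in other protein-coding hosts between 21.9 and 26.2 kb.

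The median distance differed between the classes of host gene. The 29 loci inside any ribosomal protein gene had medians of 17.8, 12.0 and 13.9 kb in eye disc libraries. In antennal disc libraries they had 12.0 and 9.73 kb, and the mean was 13.1 ± 3.03 kb. This set is wider than the 26 loci assigned to such hosts, as it includes loci with a shorter containing gene. The 26 had 18.1, 12.0 and 17.0 kb in eye and 18.3 and 10.5 kb in antennal disc libraries, a mean of 15.2 ± 3.64 kb. The 80 loci outside any ribosomal protein gene had 21.8 ± 1.08 kb, and every library gave them a longer median than the 29. The share within 1 bin differed little, at 18.2% ± 3.04 inside and 16.0% ± 1.05 outside ribosomal protein genes. For the 26 assigned loci it was 16.4% ± 3.38. Antennal disc library 2 had the reverse order, with 13.8% inside and 17.5% outside. The 59 loci whose host was another protein-coding gene had a median of 24.0 ± 1.60 kb, near the 23.2 kb of all genes, and 8.47% ± 2.68 of them lay within 1 bin of a border, below the 11.8% ± 1.17 of all genes. The 7 loci in Uhg genes had 12.0 ± 4.79 kb. Their surroundings were the most gene-rich of the host classes, with a median of 26 genes within 50 kb against 20 for all loci and 19 for all genes. They overlap the sets above: Uhg7 also lies inside a ribosomal protein gene by span, and the other Uhg loci are among the 80. Without the 2 libraries that stood apart the medians were 12.6 ± 1.10 kb inside and 22.1 ± 1.29 kb outside ribosomal protein genes, 24.6 ± 1.55 kb for other protein-coding hosts and 11.3 ± 4.32 kb for Uhg genes (n = 3 libraries). These classes were not tested against each other.

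Ribosomal protein genes lay near borders whether or not they held a snoRNA. Their median distance was 13.1 ± 3.09 kb for the 29 genes that contain a snoRNA and 12.4 ± 4.07 kb for the 59 that contain none, with overlapping libraries. The share within 1 bin did differ in level: it was 14.3%, 17.2% and 20.7% in eye and 13.8% and 21.4% in antennal disc libraries for genes with a snoRNA. For genes without one it was 30.5%, 35.6% and 27.1% in eye and 39.0% and 30.5% in antennal disc libraries. Every value without a snoRNA exceeded every value with one, and without the 2 libraries that stood apart the means were 33.9% and 17.2%. The counts behind these shares were small, at 4 to 6 genes with a snoRNA and 16 to 23 without one. All libraries score the same genes, so their agreement does not measure the spread between genes. The difference was not tested. Genes with a snoRNA were longer, with a median of 1790 bp against 1130 bp, and the part of length in the difference was not tested.

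The 9 loci without a host gene, described after their values were seen, had a median of 7.60 ± 2.31 kb, and 35.6% ± 14.5 lay within 1 bin. Eye disc library 1 gave 11.1%, and without it and antennal disc library 3 the mean was 44.4%. Nearest among them was the cluster of 3 that starts with snoRNA:Psi28S-1153, at 7.20, 2.80 and 2.20 kb in eye disc and 2.20 kb in both antennal disc libraries. The genes of U3, a snoRNA needed for the cleavage of the ribosomal RNA precursor, were farther away. snoRNA:U3:9B lay 36.8, 21.8 and 21.8 kb away in eye and 21.8 and 26.8 kb in antennal disc libraries, and the pair that starts with snoRNA:U3:54Aa lay 84.7, 49.7, 74.7, 49.7 and 49.7 kb away in the same order.

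The order of the guide classes depended on the measure. Loci with C/D but no H/ACA members (43) had a median of 18.9 ± 1.55 kb and those with H/ACA but no C/D members (35) had 19.2 ± 3.12 kb. The share within 1 bin was 16.0% ± 3.16 for the former and 21.7% ± 2.56 for the latter, which was higher in each of the 5 libraries. Counted gene by gene, the 104 C/D genes had 15.5 ± 2.48 kb and the 121 H/ACA genes 23.8 ± 4.01 kb, with 23.9% ± 4.98 and 14.2% ± 3.06 within 1 bin, the opposite order to the loci. Antennal disc library 3 went the other way, with 17.8 kb and 17.5% for C/D and 16.9 kb and 18.2% for H/ACA genes. Without it and eye disc library 1 the medians were 14.6 and 26.1 kb for genes, and 19.3 and 20.6 kb for loci. Members of a cluster share their position, so the gene-wise medians count the 11 C/D genes of Uhg5 or the 14 H/ACA genes of RpS5a as many times. The 48 unclassed genes, among them 11 of the 16 in Uhg1, entered neither gene set. Their median was 21.3 ± 3.01 kb. The 16 scaRNA genes had medians of 22.1, 22.1 and 22.8 kb in the eye and 17.0 and 16.0 kb in the antennal disc libraries. The medians of all genes also ran longer in eye, at 23.9 against 22.3 kb. Gene by gene, 3 scaRNA genes (18.8%) were farther in every eye library and 0 farther in antennal disc, against 7.73% and 5.29% of all genes. This small set was not tested.

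Among the Uhg genes, Uhg5 was the locus most closely tied to a border. Its 11 members, all C/D, lie at chr2R:14621782-14624330 (Release 6), in a host that ends at 14624498, and a border stood at 14625000 in all 5 libraries and both pooled lists. The distance was therefore 1.94 kb throughout. Uhg2 with 4 members lay 4.43, 9.43 and 9.43 kb from a border in eye and 4.43 and 9.43 kb in antennal disc libraries. Uhg4/Ctu1, where 7 members share a locus with the tRNA-modifying gene Ctu1, gave 6.27, 6.27 and 33.7 kb in eye and 1.27 and 36.3 kb in antennal disc libraries, so that the libraries of each disc disagreed. Uhg1, the largest with 16 members, lay 26.2, 21.2 and 16.2 kb away in eye and 21.2 kb in both antennal disc libraries. Uhg3 and Uhg7 lay between 8.16 and 18.2 kb in all 5 libraries, and Uhg8 was the most distant, at 34.3 to 49.3 kb.

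Large clusters in protein-coding genes covered the whole range of distances. The largest, in Arpc2, a subunit gene of the actin-nucleating Arp2/3 complex, consists of 17 H/ACA genes at chr2L:20418348-20422063 whose symbols name only the 18S sites Psi18S-525 and Psi18S-640. It lay 10.2, 25.2 and 25.2 kb from a border in eye and 20.2 and 10.2 kb in antennal disc libraries. Its TAD was narrow, between 45.0 and 75.0 kb in the 5 libraries. The 10.2 kb values come from eye disc library 1 and antennal disc library 3, those that stood apart. The 15 members in dom, which encodes a chromatin-remodelling ATPase, lay 69.8, 79.8 and 35.2 kb away in eye and 39.8 kb in both antennal disc libraries. Their TAD was 270 and 280 kb wide in eye disc libraries 1 and 2 but 110 kb in eye disc library 3 and 90.0 and 95.0 kb in antennal disc, with the nearest border right of the cluster in eye disc library 3 and left of it in the other 4.

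The cluster of 9 members in lncRNA:CR45184 and the splicing factor gene Sf3b3, at chr3L:827075-833209, was the only large one with a border inside it. Borders at 830000 cut it in libraries 2 and 3 of eye disc, in library 2 of antennal disc and in both pooled lists, while eye disc library 1 and antennal disc library 3 placed theirs 1 bin away at 835000. Its distances were 4.86, 3.07, 3.07, 3.07 and 4.86 kb. The 8 members in kra, all H/ACA, lay deep inside a TAD, at 77.5, 67.5 and 72.5 kb in eye and 57.5 and 67.5 kb in antennal disc libraries. The cluster of 7 in Hrb98DE, an hnRNP gene, lay at 57.5 kb in all eye and 62.5 kb in both antennal disc libraries. CG10576 (5 members) lay at 13.6 kb in 4 libraries and at 6.37 kb in antennal disc library 2.

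Ribosomal protein genes hosted 4 of the large clusters, and of these only RpL28 kept a single distance. Its 5 members lay at 23.1 kb in all 5 libraries, in a TAD of 50.0 kb. RpS5a, with 14 H/ACA members, lay at 24.7, 29.7 and 29.7 kb in eye and 29.7 and 24.7 kb in antennal disc libraries, a spread of 1 bin. RpS7 (7 members) differed between libraries of the same disc, with 27.6, 2.59 and 7.59 kb in eye and 32.6 and 2.59 kb in antennal disc. RpS16 (5 members) lay at 47.2, 42.2, 42.2 and 42.2 kb in all but antennal disc library 3, which gave 7.24 kb. The 7 members in Nop60B, the dyskerin gene, lay 8.81, 28.8 and 78.8 kb away in eye and 78.8 and 83.8 kb in antennal disc libraries, so the eye libraries alone covered nearly the whole range. Over the 14 large clusters the median was 24.8 ± 2.11 kb, and 8 of them (57.1%) were nearer than the median gene. Of genes other than snoRNA genes 49.8% were nearer.

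**Figure D2:**
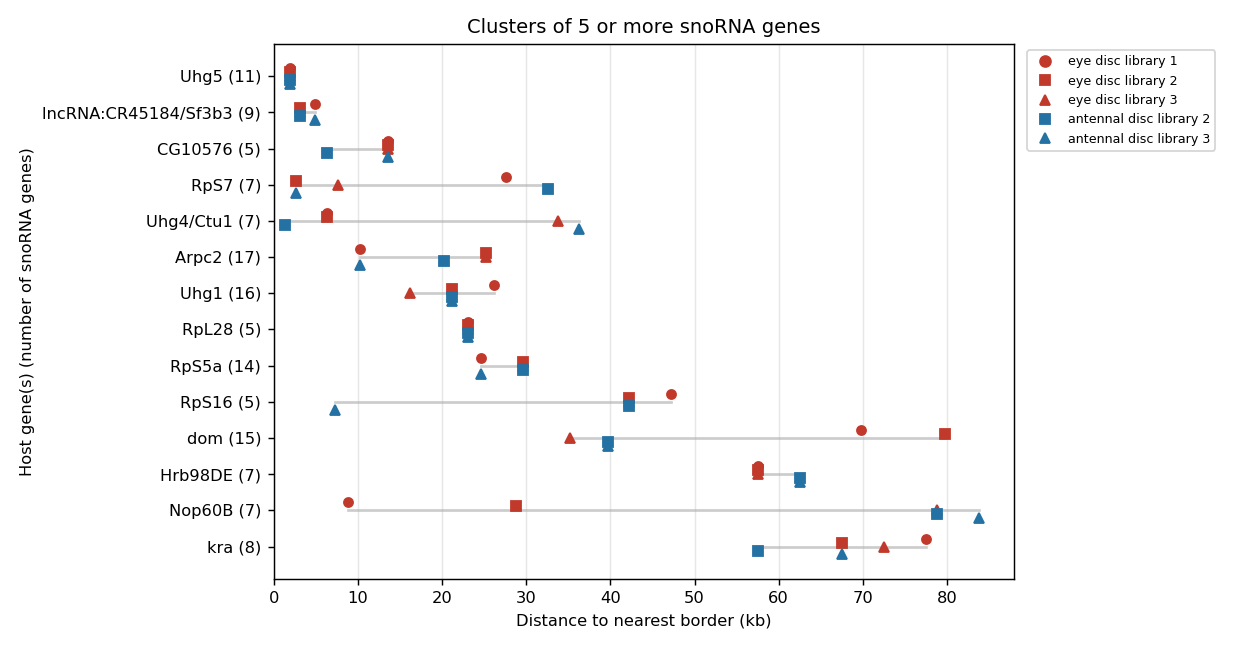
Distance to the nearest border in kb for the 14 clusters of 5 or more snoRNA genes, with 1 marker per library and a grey line over their range. Uhg5 and RpL28 keep 1 distance each, 1.94 and 23.1 kb, while Nop60B runs from 8.81 to 83.8 kb.

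The 5 loci nearest to borders on average over the discs were those in CG3902, Uhg5, eEF1alpha1 and nop5 and the unhosted Psi28S-1153 cluster. The single H/ACA gene in CG3902 lay 1.32 kb from a border in 4 libraries and 3.68 kb in antennal disc library 2. That in eEF1alpha1, the gene of a translation elongation factor, lay 6.84 kb away in eye disc library 1 and 1.84 kb in the other 4, and that in nop5, a core protein gene of C/D snoRNPs, lay 2.74 kb away in all 5. At the other end, the snoRNA in Msp300, which encodes a giant nesprin of the nuclear envelope, lay 72.5 kb from a border in all 5 libraries. That in lncRNA:CR31647 lay 82.3, 107 and 77.7 kb away in eye and 77.7 and 72.7 kb in antennal disc, and that in CG42238 lay 40.2, 115 and 75.2 kb away in eye and 110 and 40.2 kb in antennal disc.

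The other two of the farthest loci measure the edge of the calls rather than a TAD. RpL15 with 2 members lay 3303 kb from the last border of 3L in eye disc library 1 and 27.7, 22.7, 22.7 and 7.70 kb away in the others. RpS3A, on chromosome 4, had no value in eye disc library 1 and antennal disc library 3 and lay 69.4 kb away in eye disc libraries 2 and 3 and 154 kb in antennal disc library 2. It was left out of counts that need all 5 libraries, which leaves 108 loci.

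Borders near a locus recurred in few libraries. Of 108 loci, 70 (64.8%) had a border within 1 bin in no library, against 74.7% of all genes, and 4 (3.70%) had one in all 5, against 3.07%. The excess of loci was greatest at 2 libraries, where 13 loci (12.0%) stood against 5.22% of genes. Over the 3 libraries left without those that stood apart, 80 of 109 loci (73.4%) had a border within 1 bin in none, against 81.9% of all genes, and 9 (8.26%) in all 3, against 5.45%. The 4 loci with a border in all 5 libraries were those in CG3902, Uhg5, nop5 and lncRNA:CR45184/Sf3b3. The nearest borders of the 5 libraries fell within 1 bin of each other at 28 of 108 loci (25.9%), the same share as the 26.1% of all genes. An identical distance in all 5 libraries was found at 10 loci (9.26%), against 7.41% of all genes.

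**Figure D3:**
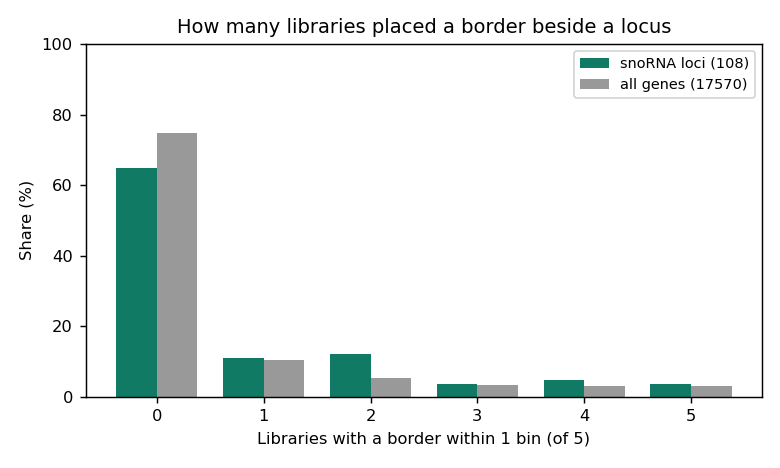
Percentage of 108 snoRNA loci (green) and of 17570 genes (grey) with a border within 1 bin in 0 to 5 of the 5 libraries. The green bar is lower at 0 libraries, 64.8% against 74.7%, and higher at 2 libraries, 12.0% against 5.22%.

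A border inside the span of a locus was rare. In any library it occurred at 5 loci, and in a pooled list at 2, lncRNA:CR45184/Sf3b3 and stet/hfp. The stet/hfp locus joins 2 snoRNAs of separate hosts, a rhomboid-type protease gene and a splicing factor gene, which lie 9826 bp apart, so the border between them in all eye libraries and antennal disc library 2 does not cut a host cluster. In the pooled lists 4.60% of all genes held a border in eye and 4.94% in antennal disc. These are longer, with a median of 1710 bp against 150 bp for loci, so the shares cannot be set against each other. The TAD around a locus had a median width of 105, 130 and 120 kb in eye and 120 and 110 kb in antennal disc libraries. Around all genes the widths were 110, 135 and 135 kb in eye and 130 and 115 kb in antennal disc libraries, so that 3 of 5 libraries differed by 1 bin. Measured from the nearer border as a fraction of TAD width, loci sat at 0.187 ± 0.0113 and all genes at 0.216 ± 0.00536.

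The eye and antennal disc libraries were compared locus by locus. At 6 of 108 loci (5.56%) every eye library placed the border farther away than every antennal library, and at another 6 the reverse held. The background was 7.73% of all genes farther in eye and 5.29% farther in antennal disc, so loci did so about as often as genes in general. With 3 against 2 libraries the two-sided exact permutation test gives no p below 0.2, and after Benjamini-Hochberg adjustment over 17570 genes none was called; at an unadjusted p of 0.05 none can be. Antennal disc library 3 and eye disc library 1 enter each of these calls; without both, 24 loci were farther in eye and 18 in antennal disc, with 23.7% and 18.5% of all genes. No locus had a border within 1 bin in all eye and no antennal libraries, nor the reverse. The share of all genes meeting this rule was not computed, so this absence cannot be set against a background.

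Among loci farther from a border in eye disc, the H/ACA scaRNA in bur, which encodes GMP synthase, differed most. It lay 32.1, 27.1 and 62.9 kb away in eye and 7.89 kb in both antennal disc libraries. The antennal border lies at 21185000 on 2L, yet the pooled antennal list gave 27.1 kb, near the pooled eye value of 32.1 kb, so pooling did not keep it. The snoRNA in Prp8, a core spliceosome gene, lay 26.2 kb away in all eye libraries and 8.79 and 3.79 kb in antennal disc, and here the pooled lists gave 26.2 and 8.79 kb. That in kis, a chromatin-remodeller gene, lay 62.8, 22.8 and 22.8 kb away in eye and 7.21 and 12.8 kb in antennal disc, but it lies before the first TAD of its arm in 3 libraries.

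Smaller differences in the same direction were found at mask, Arf1 and RpL7A. The snoRNA in mask, an ankyrin-repeat protein gene, lay at 22.2, 22.2 and 37.8 kb in eye and 17.2 kb in both antennal disc libraries. That in Arf1, a vesicle traffic GTPase gene, lay at 30.4, 15.4 and 15.4 kb in eye and 10.4 kb in both antennal libraries. RpL7A, outside the rule for named loci, lay at 13.3, 11.7 and 11.7 kb in eye and 6.67 and 3.33 kb in antennal disc. At all 3 the nearest eye and antennal values were 1 bin apart.

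Farther from a border in antennal disc were RpL14, snoRNA:Psi18S-176, lola, CG4238, Ddx56 and Hrb98DE. The 2 members in RpL14, a large-subunit ribosomal protein gene, lay 6.75, 3.25 and 3.25 kb away in eye and 33.2 and 38.2 kb in antennal disc libraries. The mean was 4.42 ± 2.02 kb (n = 3) in eye and 35.7 ± 3.54 kb (n = 2) in antennal disc, a difference of 31.3 kb, and the pooled lists gave 3.25 and 28.2 kb. Eye disc library 1 placed its border on the other side of the gene from libraries 2 and 3, at 8595000 in place of 8605000 on 3L. The 4 snoRNAs in lola, a transcription factor gene with many isoforms, lay 6.88, 1.88 and 1.88 kb away in eye and 23.1 kb in both antennal libraries. In eye disc they fell in a narrow TAD of 35.0, 25.0 and 25.0 kb whose left border was missing in antennal disc, where the TAD was 135 kb wide. The pooled lists kept this, with 1.88 and 23.1 kb.

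The unhosted snoRNA:Psi18S-176 lay 5.01, 0.077 and 0.077 kb from a border in eye and 25.0 kb in both antennal libraries, and the pooled lists gave 5.01 and 25.0 kb. The snoRNA in CG4238 lay 4.51, 24.5 and 19.5 kb away in eye and 34.5 kb in both antennal libraries. Ddx56, a DEAD-box helicase gene, had 21.9, 36.9 and 36.9 kb in eye and 41.9 kb in both antennal libraries. As at Hrb98DE, the nearest eye and antennal values were 1 bin apart.

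**Figure D4:**
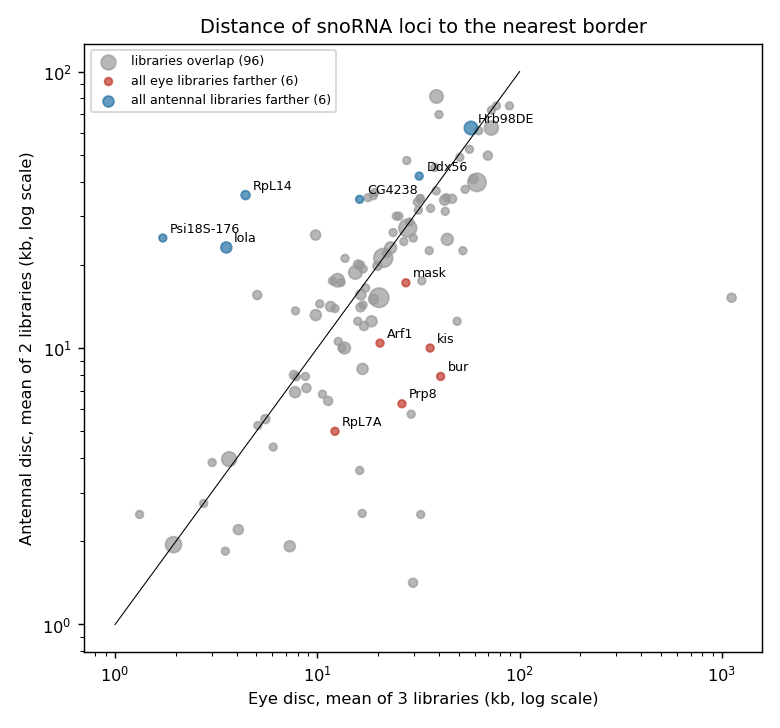
Mean distance to the nearest border over 3 eye disc libraries against that over 2 antennal disc libraries, in kb on log axes, for 108 loci, with the marker area growing with the number of snoRNA genes and the line marking equal distances. The 6 red and 6 blue points are loci whose libraries do not overlap between discs, and the grey point far right is RpL15, for which eye disc library 1 has no TAD so far along 3L.

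**Figure D5:**
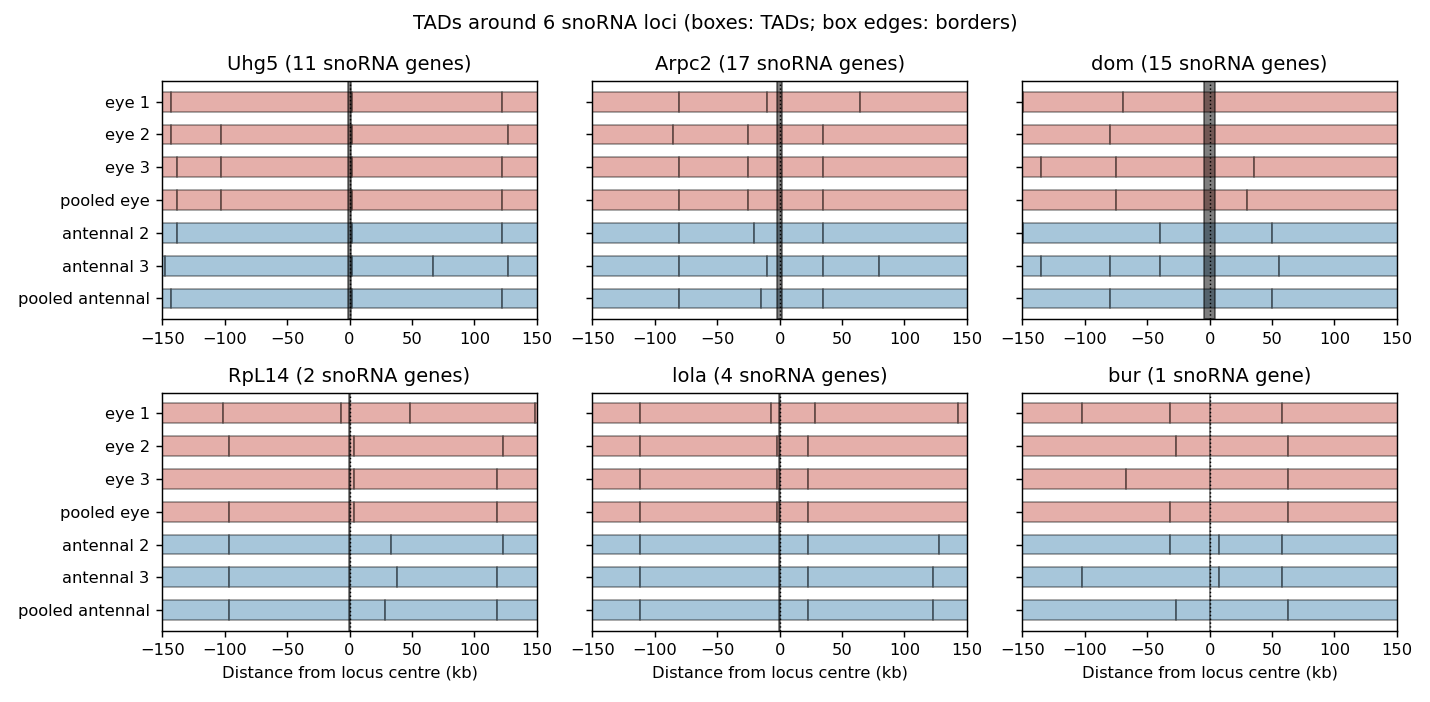
TADs (boxes) of the 5 libraries and 2 pooled lists over 150 kb on either side of 6 loci, plotted by distance from the locus centre in kb, eye disc in red, antennal disc in blue and the locus in grey. A border lies just beside Uhg5 in every list, the border left of lola is present in eye lists, and the antennal border right of bur is absent from the pooled antennal list.

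The proteins that work with snoRNAs were looked up in the same way. Of 15 genes found, 8 (53.3%) were nearer to a border than the median gene, about the same as the 51.1% of protein-coding genes. The other measures differed more. Their median distance over the 5 libraries was 13.1 ± 3.71 kb, against 22.8 ± 1.98 kb for protein-coding genes. The share within 1 bin was 30.7% ± 5.96 against 11.6% ± 1.32. That share rests on 4 to 6 genes per library, and the difference was not tested. None of the 15 genes had eye and antennal libraries that did not overlap. Of all genes 7.73% were farther in eye and 5.29% farther in antennal disc, and 15 genes are too few to set against these shares. The disc-averaged distances of the C/D core genes were 13.0 kb for Fib, 56.7 kb for Nop56, 2.25 kb for nop5 and 29.9 kb for hoip. Of the H/ACA core genes, NHP2 and Nop10 lay 2.63 and 1.62 kb away with a border within 1 bin in all 5 libraries, Gar1 lay 35.8 kb and Nop60B 60.6 kb away. The assembly helicases pont and rept lay 34.1 and 28.8 kb away and the assembly factor Nufip 4.16 kb. CG10341, the Cajal body genes coil and WDR79, and the nucleolar gene Nopp140 lay between 10.7 and 26.0 kb. Fib, nop5 and Nop60B also host snoRNAs, so their values repeat those of their loci.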

How the data were processed

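The authors deposited Hi-C results as TAD positions, in a list for each library and a pooled list for each disc. The submitters' processing notes name Bowtie2 2.3.4.2 and the dm6 build. How TADs were called, and at which bin size, is not given in the sources used here. All coordinates are multiples of 5000 bp, which was taken as the bin. The number of reads per library is unknown, so counting error is not stated.

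Every start and end of a TAD counted as a border, and where a TAD ended within 1 bin of its neighbour's start both were replaced by their midpoint. Annotation was RefSeq's gene list for Release 6, to which dm6 corresponds; it gives no strand, exons or sequence. Clusters, hosts, distances and shares were computed in Python 3.11.15 with numpy 2.4.6 and pandas 2.3.3. Every gene was compared between discs by an exact permutation test over the 10 assignments of 5 libraries, with Benjamini-Hochberg adjustment. With 3 against 2 libraries that test can call no gene, so genes whose libraries do not overlap between discs were counted. As a check of the code, 100 kb was added to the simulated eye distances of 200 among 17684 genes, and the count recovered 100% of them. The simulated borders were those of 1 list moved by at most 1 bin, so recovery was close to certain in advance. This check gives no sensitivity for differences of the size found here and no rate of false calls. Medians and shares over loci carry no test, because the members and the lists were chosen with earlier results of these data known.

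Named loci were clusters of 5 or more members, the 5 nearest and 5 farthest loci, the 5 per direction with the largest difference between discs among those without overlap, loci holding a border in a pooled list, the hosts of these, and the pathway genes. RpL7A, the remaining Uhg genes, the unhosted loci and the ribosomal protein genes were added after their values were seen. Of the pathway list, the names Naf1 and Shq1 added no gene, having no match or being counted already under another listed name. Replicate numbers were taken as names only: over 108 loci the deviations of libraries numbered 2 and 3 correlated at 0.0748 and 0.0822, and there were only 2 pairs. Antennal disc library 1 was not analysed here. Alternatives were other border definitions, cluster gaps, locus positions, arms, tolerances, the pooled lists and each library left out in turn.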

Additional observations from a re-analysis of the deposited data

How the results depend on the processing

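The disc-averaged median distance of 19.6 kb moved by less than 1 SD under all 17 alternatives and stayed below that of all genes in 18 of 18 settings. The median of all genes moved more, so the gap depends on how position is measured. It was 23.1 kb in the main setting and 20.7 kb by the nearest point of the span, where loci had 19.4 kb. The locus median ran from 19.0 to 20.2 kb with each library left out, and the eye minus antennal difference of 1.97 kb from 0.752 to 3.19 kb. The share within 1 bin, 16.7%, exceeded that of all genes in 19 of 21 settings. It became 15.3% with members joined up to 20 kb apart, 18.1% with each gene on its own, 17.7% by the nearest point, 17.3% by the midpoint, 13.0% by the host gene and 15.8% on 2L to 3R. At tolerances of 0, 2 and 5 bins it was 0.0%, 31.0% and 61.8%, against 0.0%, 23.9% and 53.3% of all genes; a span rarely meets the tolerance of 0 by construction. The eye minus antennal difference of this share, -0.797 percentage points, was -0.0259 with a gap of 5 kb, -0.195 for single genes, 0.282 by the nearest point, 0.687 on 2L to 3R, 3.67 in the pooled lists and 0.0 at a tolerance of 0. It was also 0.0 without eye disc library 1 and antennal disc library 3, an alternative added after seeing the data. It ran from -1.34 to -0.258 with 1 library left out. The sign of this difference is therefore not settled.

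The counts of non-overlapping loci were 6 farther in eye and 6 in antennal disc. Without eye disc library 1 and antennal disc library 3 they were 24 and 18, beside 23.7% and 18.5% of all genes. With each of 272 snoRNA genes taken singly they were 10 (3.68%) and 16 (5.88%), against 7.73% and 5.29% of all genes. With 1 library left out the counts ran from 11 to 15 and from 7 to 21 of 108 loci. The shares of all genes rose as well, to between 9.8% and 18.7% and between 8.23% and 14.4%. Fewer libraries make such calls easier by construction. With the replicate block of numbers 2 and 3 (the same direction in both pairs) the counts were 18 and 12. No share of all genes was computed for that block. Its median difference was 2.88 kb and its share difference -0.539 percentage points. These numbers do not establish a pairing. Depth limits how far a missing border can be told from an unseen one.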
